A study of Mus musculus with 6 samples.

Results

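*Lin28a*, *Lin28b*, *Igf2bp1*, *Igf2bp2*, *Igf2bp3*, *Hmga1*, *Hmga2* and *Trim71* are genes of fetal timing, and their transcripts were compared between WT and *SYISL* KO leg muscle of mouse fetuses. The 8 genes were taken by name from a table of 56262 genes, and all 8 passed the filter on low counts that left 22071 genes for testing. Total RNA was taken from leg muscle at embryonic day 18.5 in 3 WT and 3 KO samples. The KO fetuses lack *SYISL*, a long noncoding RNA transcribed across intronic sequence of *Synpo2*, and no group carried another allele or received a treatment. Parents shared one genotype in each mating, so the genotype of the mother, the genotype of the fetus and the litter cannot be told apart. The labels do not say whether the samples of a group came from separate fetuses or litters, so p-values measure only the spread between these samples.

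The 8 genes surround the let-7 microRNAs, which repress a shared set of fetal transcripts as tissues mature. LIN28A and LIN28B bind let-7 precursors and block their maturation, and TRIM71 is an E3 ubiquitin ligase and RNA-binding repressor. The IGF2BP proteins bind messenger RNAs and affect their stability and translation, and the HMGA proteins are architectural chromatin factors that bind AT-rich DNA. Transcripts of all 3 families are known to be abundant in embryos and to decline towards birth. Skeletal muscle uses IGF2BP2 and HMGA2 in proliferating myoblasts, where HMGA2 is known to activate the *Igf2bp2* gene.

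The sequences below show the shared motif around which these genes are grouped. The 9 mature let-7 and miR-98 sequences of the mouse carried 1 seed, bases 2 to 8, and differed only outside it. The examples are RNA from RefSeq, build GRCm38.p6, with the seed in capitals. They lie at chr13:48538239-48538260 on the minus strand, chr9:106178846-106178867 on the plus strand and chrX:151913229-151913250 on the plus strand.
let-7a-5p: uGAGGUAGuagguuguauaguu
let-7g-5p: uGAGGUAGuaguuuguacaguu
miR-98-5p: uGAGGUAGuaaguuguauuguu
LIN28 proteins recognise the letters GGAG in the loop of the precursor. Of 12 let-7 and miR-98 hairpins, 9 held GGAG between the arms. The let-7g hairpin, at chr9:106178840-106178927 on the plus strand, is shown with that motif in capitals.
let-7g hairpin: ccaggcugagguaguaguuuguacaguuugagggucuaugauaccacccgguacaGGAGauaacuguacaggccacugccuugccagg

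The DNA letters that pair with the let-7 seed are CTACCTC, searched on the transcript strand of the longest annotated 3′ UTR of each gene. All 8 genes held at least 1 such match, against 9.0% of 21024 annotated 3′ UTRs. The 8 genes were chosen as a group around let-7, so this contrast cannot test for enrichment. Their 3′ UTRs, at 1183 to 6337 bases, were also longer than the median of 960 bases. Among 3′ UTRs of similar length, as defined below, the share with any match ran from 8.2% for *Hmga1* to 34.2% for *Igf2bp1*. The matches in the 8 genes are a property of the sequence and do not show that let-7 acts at them in this tissue. The first match in each gene is given 5′ to 3′ on its transcript strand, with 14 bases before it, and the capitals mark the match and the A that follows it in 7 of the 8 genes. Coordinates are from mm10, and only *Hmga1* lies on the plus strand.
*Lin28a*, chr4:134005189-134005210: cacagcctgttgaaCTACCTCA
*Lin28b*, chr10:45381022-45381043: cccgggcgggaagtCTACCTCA
*Igf2bp1*, chr11:95961778-95961799: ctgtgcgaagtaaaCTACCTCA
*Igf2bp2*, chr16:22059473-22059494: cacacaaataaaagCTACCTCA
*Igf2bp3*, chr6:49086787-49086808: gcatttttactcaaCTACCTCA
*Hmga1*, chr17:27563278-27563299: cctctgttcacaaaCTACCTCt
*Hmga2*, chr10:120364224-120364245: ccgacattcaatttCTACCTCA
*Trim71*, chr9:114512472-114512493: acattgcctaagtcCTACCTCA

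The number of matches separated the genes into those with several and those with 1. *Hmga2* held 4 matches in 3014 bases of 3′ UTR, a number reached by 0.08% of 3′ UTRs of similar length (0.8 to 1.25 times). *Igf2bp1* held 4 matches in 6337 bases, *Lin28b* 4 in 4445 bases and *Trim71* 4 in 5512 bases, numbers reached by 0.17%, 0.22% and 0.36% of 3′ UTRs of similar length. *Lin28a* held 2 matches in 2775 bases, which 2.02% of comparable 3′ UTRs reached. *Igf2bp2*, *Igf2bp3* and *Hmga1* each held a single match, as did or exceeded 12.1%, 13.3% and 8.21% of 3′ UTRs of similar length. The 4 matches of *Trim71* were all followed by an A, and the last pair started at positions 3591 and 3617 of its 3′ UTR. Matches to the miR-125 seed (CTCAGGG), another microRNA of developmental timing, occurred once each in *Lin28a*, *Lin28b*, *Igf2bp3* and *Trim71* and in none of the other 4 genes. Of 3′ UTRs of similar length, 24.7%, 32.4%, 20.4% and 37.7% held such a match, and 13.1% of all 3′ UTRs did.

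Sequencing depth was 82054811 to 102233181 counts per sample. Levels are given as CPM (counts divided by the library total and scaled to a common total) on TMM-scaled library sizes, and 3 counts, the limit that a count of 0 allows, corresponded to 0.0293 to 0.0366 CPM, for counting error only. Tests are edgeR's quasi-likelihood F-test with Benjamini-Hochberg adjustment over the 22071 genes, and a gene is said to rise or fall at an adjusted p under 0.05. The labelled muscle was checked by its markers. *Acta1*, *Ckm*, *Myh3*, *Myh8* and *Tnnt3* together reached 14505 to 16559 CPM in WT and 32256 to 39202 CPM in KO. Of these 5 markers 4 rose, and *Myh3* did not pass (log2 fold change -0.04, adjusted p = 0.651, edgeR). *Ttn*, also listed, had no row matched to its symbol. All 10 epidermis markers and all 7 red blood cell markers fell, where 23.1% of all tested genes fell. The epidermis markers summed to 17560 to 25928 CPM in WT and 824 to 951 CPM in KO, and the red blood cell markers to 3947 to 5191 CPM in WT and 548 to 669 CPM in KO. WT replicate 2 was the highest WT sample in both sums.

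Of the 8 genes, 6 fell in KO and none rose. Among all genes tested, 23.1% fell and 21.9% rose, and the median log2 fold change was -0.43 over the 8 genes and -0.004 over all genes. With library size alone in place of TMM, 36.6% of all calls were rises, with upper-quartile factors 62.0% and with TMM 48.7%, and 6 of the 8 genes fell under each. Both genes of the Hmga family, all 3 Igf2bp genes and *Trim71* fell, while *Lin28a* and *Lin28b* did not pass the test. *Hmga2* and *Trim71* also passed the 1.5-fold threshold, though *Hmga2* missed it with upper-quartile factors (-0.58). Of all genes, 8.39% passed the threshold in the lower direction and 8.31% in the higher. In all 6 genes that fell, each KO sample lay below each WT sample, an order seen in 28.5% of all genes. In bulk tissue, fewer cells of a type and less RNA per cell cannot be told apart.

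**Figure D1:**
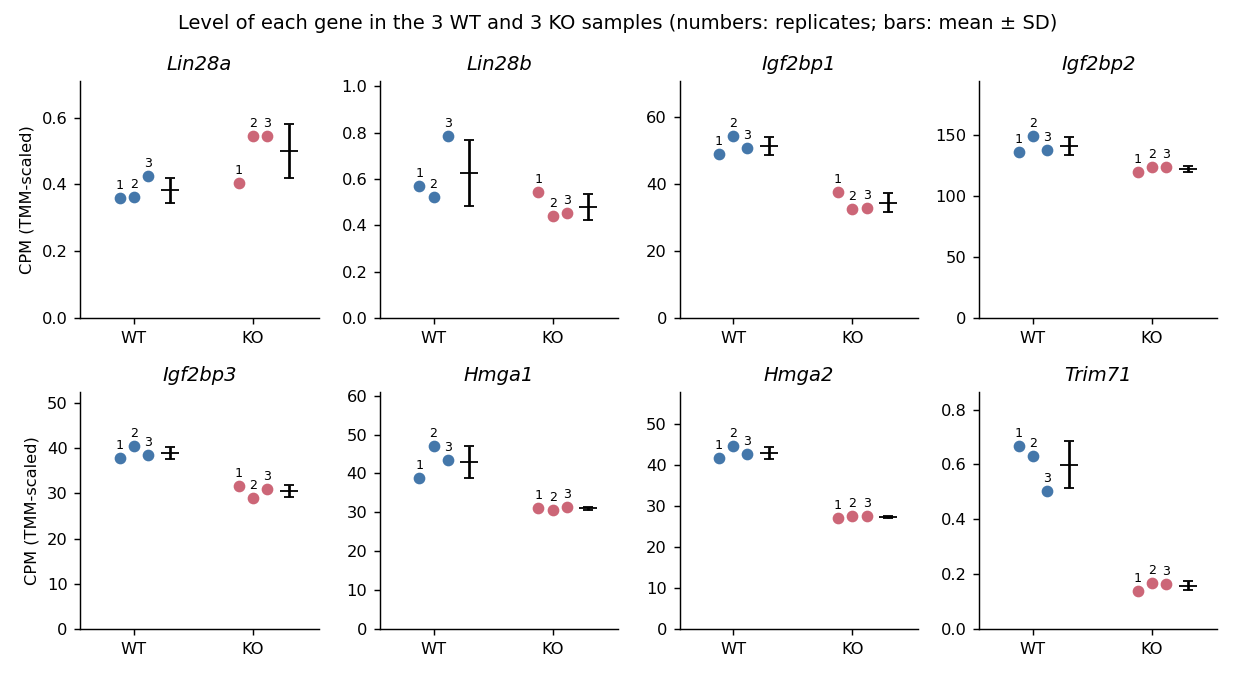
Level of each of the 8 genes in CPM on TMM-scaled library sizes, by genotype. Points are samples numbered by replicate and bars are the mean ± SD of 3 samples; the KO points of *Igf2bp1*, *Igf2bp2*, *Igf2bp3*, *Hmga1*, *Hmga2* and *Trim71* all lie below the WT points, and those of *Lin28a* and *Lin28b* overlap with WT.

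*Trim71*, on chromosome 9 (114507133 to 114564369, minus strand), had the largest change of the 8 genes and the lowest level per length in KO. The WT libraries held 63, 52 and 53 counts of it, and the KO libraries 13, 16 and 16. On the CPM scale WT stood at 0.666, 0.629 and 0.502, with KO at 0.139, 0.168 and 0.164. All 3 KO samples thus lay far below the lowest WT sample and close together. The mean fell from 0.599 ± 0.0858 to 0.157 ± 0.0160 CPM (SD, n = 3), a level lower by 73.8%. The log2 fold change was -1.92 (SE 0.21, 95% interval -2.39 to -1.44, adjusted p = 7.35e-05, edgeR). The KO counts were above 3 in every sample, so the transcript was still detected in KO. *Trim71* shares 135 exon bases (1.45% of its exons) with *C130032M10Rik* on the opposite strand.

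*Hmga2*, on chromosome 10 (120361275 to 120476469, minus strand), encodes the HMGA protein that is most restricted to embryonic tissue. Its level was 41.6, 44.5 and 42.7 CPM across WT and 27.1, 27.5 and 27.6 CPM across KO. The KO samples were nearly equal, and the gap to WT was larger than the range within either group. The mean fell from 42.9 ± 1.48 to 27.4 ± 0.295 CPM (SD, n = 3), or by 36.2%. The log2 fold change was -0.65 (SE 0.041, 95% interval -0.74 to -0.56), and the adjusted p of 1.99e-06 by edgeR was the lowest of the 8 genes.

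*Hmga1*, on chromosome 17 (27556497 to 27563674, plus strand), encodes the broadly expressed member of the same family. Its level was 38.8, 47.0 and 43.4 CPM across WT and 31.1, 30.6 and 31.3 CPM across KO. WT samples were spread more widely than KO samples, and the groups did not overlap. The mean fell from 43.1 ± 4.09 to 31.0 ± 0.331 CPM (SD, n = 3), or by 28.0%, with a log2 fold change of -0.47 (SE 0.064, adjusted p = 2.67e-04, edgeR). Reads of *Hmga1* may have been divided with *Hmga1b* on chromosome 11 (120762794 to 120764419), a copy whose longest transcript matched an *Hmga1* transcript at 99.6% of bases. *Hmga1b* had 596, 592 and 770 counts across WT and 563, 359 and 472 across KO, and it also fell, with a log2 fold change of -0.51 (SE 0.15, adjusted p = 0.0195, edgeR), which did not pass without WT replicate 3 (adjusted p = 0.0664) or KO replicate 3 (adjusted p = 0.0651). The fall of *Hmga1* is therefore uncertain as to which of the 2 loci gave the reads, and both were lower in KO.

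Of the Igf2bp genes, *Igf2bp1* had the largest fall. *Igf2bp1*, on chromosome 11 (95957163 to 96005940, minus strand), encodes an oncofetal RNA-binding protein that protects its bound transcripts. Its level was 49.0, 54.5 and 50.7 CPM across WT and 37.8, 32.7 and 33.0 CPM across KO. KO replicate 1 was the highest of the KO samples and still lay below every WT sample. The mean fell from 51.4 ± 2.81 to 34.5 ± 2.89 CPM (SD, n = 3), or by 32.9%. The log2 fold change was -0.58 (SE 0.064, 95% interval -0.72 to -0.43, adjusted p = 7.69e-05, edgeR), just short of the 1.5-fold threshold, and it passed that threshold without WT replicate 1 (-0.61), WT replicate 3 (-0.59) or KO replicate 1 (-0.64) and with scaling by library size alone (-0.64).

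*Igf2bp3*, on chromosome 6 (49085223 to 49214957, minus strand), encodes a close relative of IGF2BP1 that is largely silent in adult tissue. Its level was 37.9, 40.4 and 38.6 CPM across WT and 31.6, 29.0 and 30.9 CPM across KO. The groups did not overlap and had a like spread. The mean fell from 39.0 ± 1.28 to 30.5 ± 1.35 CPM (SD, n = 3), or by 21.7%, with a log2 fold change of -0.35 (SE 0.047, adjusted p = 2.56e-04, edgeR). *Malsu1*, on the opposite strand, covers 1529 exon bases (18.7%) of *Igf2bp3*, and whether the counting used strand is not stated. *Malsu1* itself had a log2 fold change of 0.14 (adjusted p = 0.254, edgeR).

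*Igf2bp2*, on chromosome 16 (22059009 to 22163299, minus strand), is the family member that adult muscle keeps. Its level was 135, 149 and 137 CPM across WT and 119, 124 and 124 CPM across KO. The groups did not overlap, but the highest KO and lowest WT samples were close. The mean fell from 141 ± 7.40 to 122 ± 2.50 CPM (SD, n = 3), or by 13.1%, the smallest fall among the 6 genes. The log2 fold change was -0.20 (SE 0.046, 95% interval -0.31 to -0.10, adjusted p = 0.00562, edgeR).

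Both Lin28 genes were detected in every sample at low counts, and neither passed the test. *Lin28a*, on chromosome 4 (134003330 to 134018841, minus strand), had 34, 30 and 45 counts across WT and 38, 52 and 53 across KO. Its level was 0.359, 0.363 and 0.426 CPM across WT and 0.405, 0.546 and 0.545 CPM across KO, so that KO replicate 1 lay within the WT range. The WT mean was 0.383 ± 0.0377 CPM and the KO mean 0.499 ± 0.0807 CPM (SD, n = 3), and the log2 fold change of 0.38 had a 95% interval of -0.053 to 0.81 (adjusted p = 0.140, edgeR). It was the only one of the 8 genes with a higher mean in KO. *Lin28a* shares 234 exon bases (5.86%) with *Gm13061* on the opposite strand.

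*Lin28b*, on chromosome 10 (45376620 to 45486395, minus strand), had 54, 43 and 83 counts across WT and 51, 42 and 44 across KO. Its level was 0.570, 0.520 and 0.786 CPM across WT and 0.544, 0.441 and 0.452 CPM across KO. KO replicate 1 lay above WT replicate 2, and WT replicate 3 stood above all other samples. The WT mean was 0.626 ± 0.141 CPM and the KO mean 0.479 ± 0.0567 CPM (SD, n = 3). The log2 fold change of -0.40 had a 95% interval of -0.85 to 0.056 (adjusted p = 0.140, edgeR), and without WT replicate 3 it was -0.19. The interval of each Lin28 gene reached past 1.5-fold in the direction of its mean and included 0.

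Levels of different genes were set side by side as CPM per kb of exon. In WT the order from the top was *Hmga1* at 20.3 ± 1.93, *Igf2bp2* with 18.3, 20.1 and 18.6 in the WT samples, *Hmga2* at 6.34 ± 0.219, *Igf2bp1* at 5.31 ± 0.290 and *Igf2bp3* at 4.77 ± 0.157 CPM per kb (SD, n = 3). The first pair in that order did not differ beyond its spread. *Lin28a* at 0.0958 ± 0.00943, *Lin28b* at 0.0690 ± 0.0156 and *Trim71* at 0.0642 ± 0.00920 CPM per kb formed a far lower group, in which *Lin28b* and *Trim71* did not differ beyond their spread. *Igf2bp2* and *Hmga1* lay above 87.8% and 87.5% of all tested genes by level per length, and *Trim71* above 1.93%. In KO, *Igf2bp2* at 16.5 ± 0.337 stood above *Hmga1* at 14.6 ± 0.156 CPM per kb. *Hmga1b*, at 4.88 ± 1.12 CPM in KO (SD, n = 3), was left out, and reads divided between it and *Hmga1* may alter that order. *Igf2bp3* at 3.74 ± 0.165 and *Igf2bp1* at 3.56 ± 0.298 CPM per kb did not differ beyond their spread there, and *Trim71* was last at 0.0168 ± 0.00171 CPM per kb.

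The summed level of the Igf2bp genes was 28.0, 30.7 and 28.5 CPM per kb in WT and 23.9, 23.6 and 23.9 CPM per kb in KO, which is 81.9% of the WT mean. Within the family, the share of *Igf2bp2* was 65.3%, 65.6% and 65.0% in WT and 67.4%, 70.7% and 69.9% in KO. That of *Igf2bp1* was 18.1%, 18.3% and 18.4% in WT and 16.4%, 14.3% and 14.3% in KO. Groups did not overlap in either share, with *Igf2bp2* higher and *Igf2bp1* lower in each KO sample. The share of *Igf2bp3* was 16.6%, 16.1% and 16.6% in WT and 16.2%, 15.0% and 15.8% in KO, with overlap. By an exact two-sided permutation test, p was 0.1 for *Igf2bp1* and *Igf2bp2*, the smallest that 3 against 3 samples can give and thus unable to reach 0.05, and 0.2 for *Igf2bp3*.

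The summed level of the Hmga genes was 24.4, 28.7 and 26.7 CPM per kb in WT and 18.6, 18.5 and 18.8 CPM per kb in KO, or 70.0% of the WT mean. *Hmga1* made up 74.8%, 77.1% and 76.4% of this sum in WT and 78.5%, 78.0% and 78.3% in KO. The copy *Hmga1b* was left out of the sum, and reads divided between it and *Hmga1* may alter these shares. The groups did not overlap and differed by 2.19 percentage points, and an exact two-sided permutation test gave p = 0.1, the smallest that this design allows, so it could not reach 0.05.

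**Figure D2:**
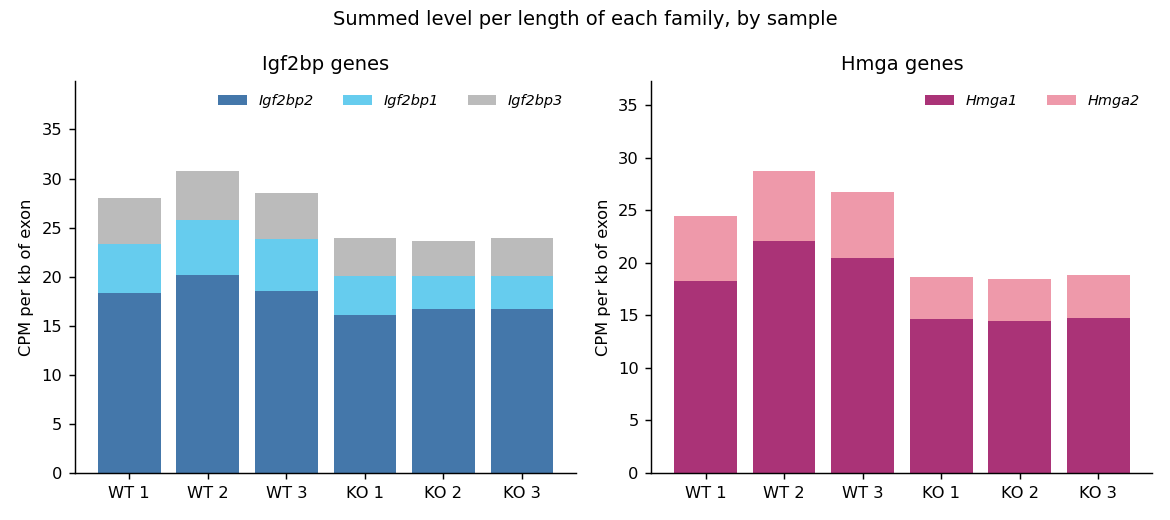
Summed level of the Igf2bp genes (left) and Hmga genes (right) in CPM per kb of exon, by sample, with colours for each gene. The 3 KO samples reach 23.6 to 23.9 for Igf2bp and 18.5 to 18.8 for Hmga, below all WT samples, and *Igf2bp2* and *Hmga1* form most of each bar.

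The 6 genes that fell were set beside markers of other cells and of proliferation, which moved in both directions. WT replicate 2, which had the most epidermis marker RNA (25928 CPM against 17560 and 19457 CPM in WT replicates 1 and 3), was also the highest WT sample for *Igf2bp1*, *Igf2bp2*, *Igf2bp3*, *Hmga1* and *Hmga2*. For *Trim71* the highest WT sample was replicate 1. In KO, replicate 2 had the most epidermis marker RNA (951 CPM against 824 and 903 CPM in KO replicates 1 and 3). It was the lowest KO sample for *Igf2bp1*, *Igf2bp3* and *Hmga1*. For *Hmga2* it was the middle one, and for *Igf2bp2* and *Trim71* the highest. Without WT replicate 2, all 6 genes still fell. WT replicates 1 and 3 still held far more epidermis marker RNA than any KO sample, so this fit cannot test the part of epidermis. Of 10 proliferation markers, 9 fell, none of them past the 1.5-fold threshold. Over all 10 the median log2 fold change was -0.22, and the sum was 1292 to 1340 CPM in WT and 1107 to 1213 CPM in KO. Of the myogenic genes, *Myod1*, the myoblast determination factor, and *Myog*, a factor of differentiation, fell, each with a log2 fold change of -0.22. *Mymk*, needed for myoblast fusion, rose with one of 0.22, and the progenitor marker *Pax7* had one of -0.13 (adjusted p = 0.0763, edgeR). Of the 6 cartilage markers 4 fell and 2 rose, of the 5 bone markers 2 fell and 2 rose, and all 4 macrophage, 4 of 5 fibroblast and 3 of 4 endothelium markers rose. Of the other lists, 2 of 4 blood progenitor and 2 of 3 glia markers rose and none of 4 liver markers passed. Over all tested genes 23.1% fell and 21.9% rose, and the counts above only describe each list. The part of these cell markers in the lower levels of the 6 genes was not tested.

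Genes of let-7 processing had small fold changes. Of 19 listed genes of microRNA maturation and turnover, 18 were tested, and *Ago1* had no row matched to its symbol. Of the 18, 3 fell, 1 rose and 14 did not pass. Over all tested genes 23.1% fell and 21.9% rose, so these counts only describe the list. The median log2 fold change of the 18 genes was -0.03, and none passed the 1.5-fold threshold. *Xpo5*, the exporter of microRNA precursors, fell from 58.1 ± 1.43 to 49.6 ± 1.99 CPM (log2 fold change -0.23, adjusted p = 0.00169). *Khsrp*, which aids let-7 processing, fell with a log2 fold change of -0.21 (adjusted p = 0.0167), and *Drosha*, the nuclear microRNA nuclease, with one of -0.10 (adjusted p = 0.0303). *Drosha* passed in 5 of 14 alternatives, and not with DESeq2 (adjusted p = 0.0723), with the replicate block (0.0674) or without any 1 of the samples other than KO replicate 1. *Khsrp* passed in 10 of 14, and not without WT replicate 3, KO replicate 2 or KO replicate 3 (adjusted p = 0.0518, 0.0556 and 0.0540). *Ago2*, the slicing Argonaute, rose from 271 ± 1.13 to 328 ± 15.2 CPM (log2 fold change 0.28, adjusted p = 0.00106). *Dicer1* and the uridylating enzymes *Tut4* and *Tut7*, which act on let-7 precursors bound by LIN28A, had log2 fold changes of -0.07, -0.03 and 0.02 and did not pass. Mature microRNAs were not measured. Of 18 primary transcript and hairpin genes of let-7, miR-99, miR-100 and miR-125, 14 were at 0 in every sample and 2 were tested. *Mir99ahg*, the host of let-7c, miR-99a and miR-125b, rose from 13.3 ± 0.822 to 15.3 ± 0.438 CPM (SD, n = 3), with 14.2, 12.5 and 13.3 CPM in WT and 15.8, 15.2 and 14.9 CPM in KO (log2 fold change 0.20, adjusted p = 0.0265, edgeR). That call held in 8 of 14 alternatives and was lost without WT replicate 2 or 3 and without any 1 of the KO samples (adjusted p from 0.0532 to 0.0853).

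Other known let-7 targets moved in both directions. Of 22 listed genes, 21 were tested, and *Myc* had no row matched to its symbol. Of the 21, 4 fell, 7 rose and 10 did not pass, with a median log2 fold change of -0.03. *Plagl2*, a zinc-finger growth regulator, fell from 66.3 ± 7.03 to 43.1 ± 1.56 CPM (log2 fold change -0.62, adjusted p = 8.32e-05) and was the only one past the 1.5-fold threshold, which it missed without WT replicate 2 (-0.54) and with upper-quartile factors (-0.55). The cell cycle genes *Ccnd2* and *Cdc25a* fell with log2 fold changes of -0.41 (adjusted p = 1.68e-04) and -0.29 (adjusted p = 2.93e-04). *Irs2* and *Insr* of the insulin pathway rose with log2 fold changes of 0.54 (adjusted p = 3.43e-04) and 0.50 (adjusted p = 2.02e-04), and the chromatin factor *Arid3b* with one of 0.40 (adjusted p = 0.00416). Of all tested genes 23.1% fell and 21.9% rose, so these counts are given as a description of the list only.

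The same comparison was made over all genes by let-7 matches, with the 8 genes left out. The median log2 fold change was -0.02 in 14053 genes with no match, -0.02 in 1394 genes with 1 match, -0.07 in 166 genes with 2 and 0.07 in 22 genes with 3 or more. These medians moved with the settings. Counting only matches followed by an A, the medians were -0.02, -0.02, -0.16 and 0.08 in the order above. These classes held 15092, 518, 21 and 4 genes, of which 27.9%, 28.8%, 47.6% and 0% fell. With scaling by library size alone the medians were -0.09, -0.08, -0.14 and close to 0. With all matches counted and TMM scaling, the share that fell was 27.9%, 27.5%, 36.1% and 22.7% in that order. The share that rose was then 24.5%, 25.9%, 19.3% and 27.3%. Genes with matches had longer 3′ UTRs, with a median of 1002 bases at no match and 4460 bases at 3 or more. The 22 match-rich genes included *Trim6*, which rose (log2 fold change 0.90), and the membrane transporter *Slc22a23*, which fell (-1.24), and both were picked out after their values were seen. *Hmga2*, *Igf2bp1*, *Trim71* and *Lin28b*, with 4 matches each, lay below the lower quartile (-0.13) of those 22 genes, though *Lin28b* did not pass the test. Among the 77 genes with 3 or more miR-125 matches, 20.8% fell and 41.6% rose, with a median of 0.08. With no, 1 and 2 miR-125 matches, 24.3%, 25.6% and 23.7% of genes rose, with medians of -0.02, -0.02 and -0.03. The 77 genes also had longer 3′ UTRs, with a median of 3745 bases against 952 bases at no miR-125 match. No alternative setting was run for the miR-125 classes.

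**Figure D3:**
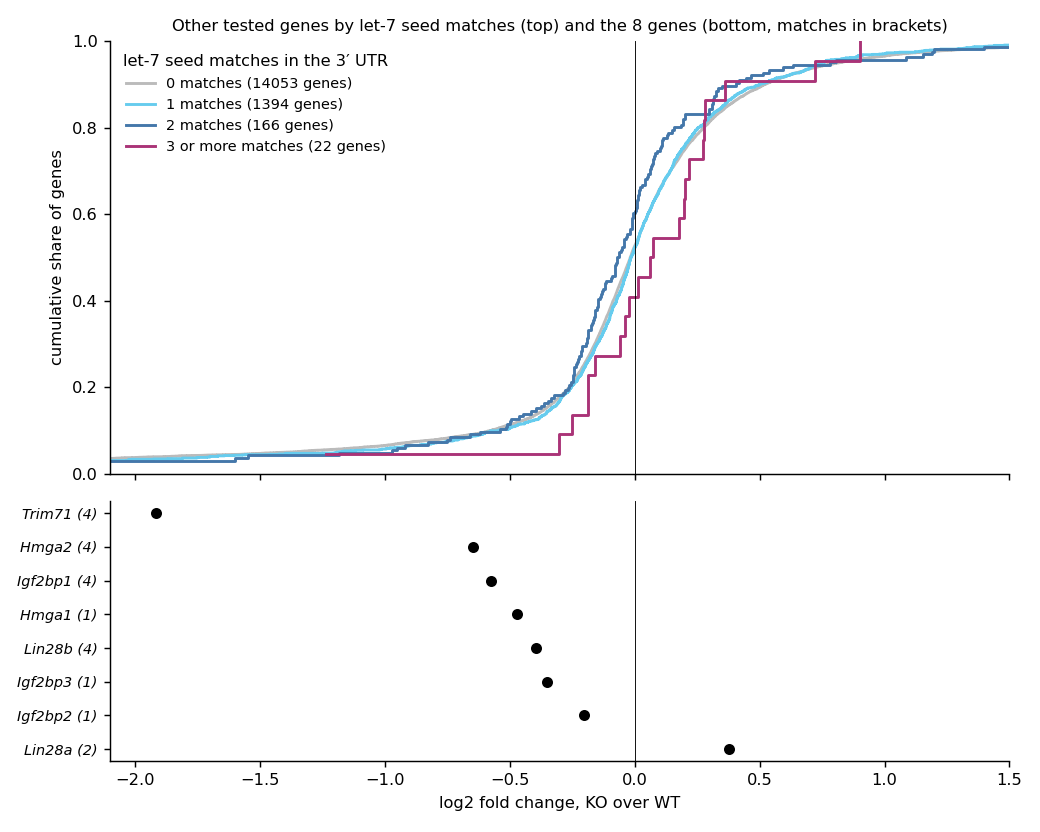
Top, cumulative share of tested genes against the log2 fold change (KO over WT), by the number of let-7 seed matches in the longest 3′ UTR, without the 8 genes. Bottom, log2 fold change of the 8 genes with their matches in brackets; the curves cross near 0, while 7 of the 8 points lie below 0.

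Transcripts that IGF2BP proteins are known to bind were tested next. Of 5 listed, 4 were tested, and *Myc* again had no row matched to its symbol. Of the 4, 3 rose and none fell, and over all tested genes 21.9% rose. *Igf2*, the fetal growth factor whose messenger gave the family its name, had 143, 191 and 151 CPM in WT and 183, 211 and 237 CPM in KO. WT replicate 2 lay above KO replicate 1, so the groups overlapped. The WT mean was 161 ± 25.5 CPM and the KO mean 211 ± 26.7 CPM (SD, n = 3), with a log2 fold change of 0.38 (adjusted p = 0.0230, edgeR). The rise of *Igf2* passed in 9 of 14 alternatives, and not with DESeq2 (adjusted p = 0.0651) or without WT replicate 1, WT replicate 3, KO replicate 2 or KO replicate 3 (adjusted p from 0.0634 to 0.0902). *H19*, the imprinted noncoding RNA next to *Igf2*, rose from 11346 ± 549 to 19563 ± 1303 CPM (log2 fold change 0.79, adjusted p = 6.80e-05). *Cd44*, a hyaluronan receptor, rose from 203 ± 9.29 to 250 ± 10.1 CPM (log2 fold change 0.30, adjusted p = 0.00104), and *Actb* had a log2 fold change of -0.10 (adjusted p = 0.168, edgeR).

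Of 7 genes listed downstream of HMGA2 or TRIM71, 6 were tested, and *Junb* had no row matched to its symbol. Of the 6, 2 rose, 1 fell and 3 did not pass. Over all tested genes 21.9% rose and 23.1% fell, so these counts only describe the list. *Egr1*, a transcription factor whose messenger TRIM71 is known to repress, rose from 55.9 ± 1.47 to 79.3 ± 5.55 CPM (log2 fold change 0.50, adjusted p = 5.27e-05). *Rbl2*, a pocket protein of the cell cycle, rose with a log2 fold change of 0.16 (adjusted p = 0.0129), and *Ccna2*, a cyclin induced by HMGA2 in other cells, fell with one of -0.14 (adjusted p = 0.0180). *Ccna2* did not pass without WT replicate 2, WT replicate 3, KO replicate 2 or KO replicate 3 (adjusted p from 0.0521 to 0.0891), and *Rbl2* did not without KO replicate 3 (adjusted p = 0.0572). *Cdkn1a*, the cell cycle inhibitor p21, had a log2 fold change of -0.09 (adjusted p = 0.248, edgeR), and *Rbl1* and *Cdkn2a* did not pass either. Whether the changes of these genes are linked to the lower *Hmga2* or *Trim71* was not tested.

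**Figure D4:**
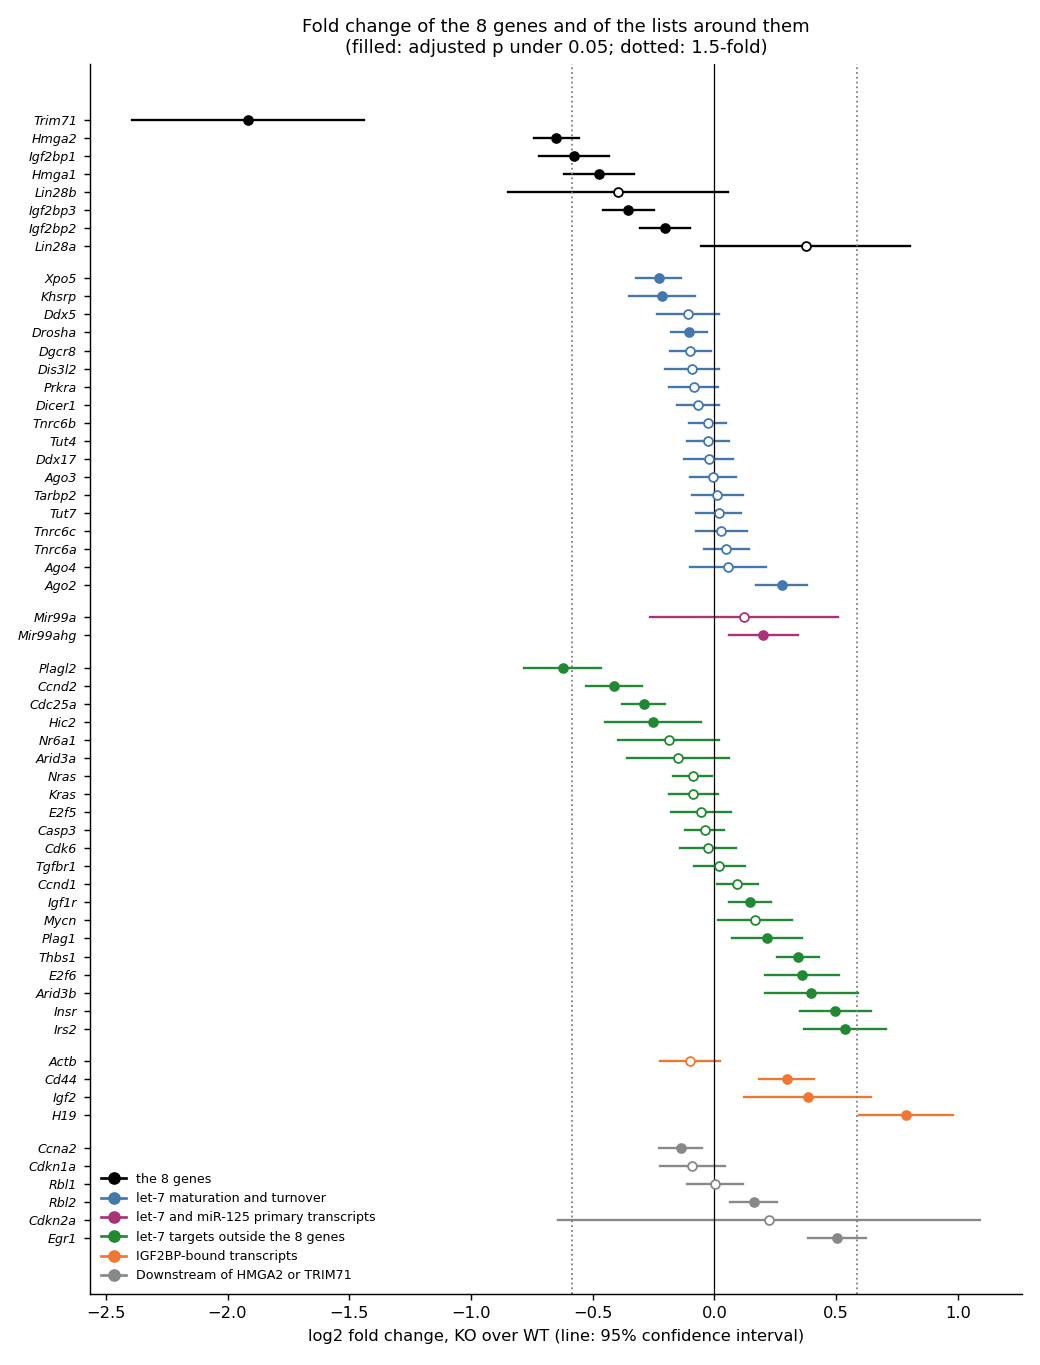
Log2 fold change (KO over WT) of the 8 genes and of the tested genes in the lists around them, with 95% intervals from edgeR. Filled points passed an adjusted p of 0.05 and dotted lines mark 1.5-fold; of the 8 genes, *Trim71* at -1.92 and *Hmga2* at -0.65 lie outside the lines with their points, while the tested genes of the other lists reach both sides of 0, except the primary transcripts, which lie above it.

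The genes most like each of the 5 better expressed members were found by the root mean square distance between centred log2 CPM over the 6 samples, among 11967 genes with a mean of at least 5 CPM. For *Hmga2* they were *Gpx1* (0.018), *Uck2* (0.024) and *Sdc1* (0.025). For *Hmga1* they were *Scrib* (0.022), *Nrd1* (0.024) and *Slc1a3* (0.025). For *Igf2bp1* they were *Msmo1* (0.028), *Bmp7* (0.031) and *Cdca7l* (0.032). For *Igf2bp2* they were *Ston2* (0.0077), *Dcaf4* (0.010) and *Fech* (0.018), and for *Igf2bp3* *Smn1* (0.018), *Capn10* (0.021) and *Baiap2l1* (0.022). Both genes of a pair were measured in the same 6 libraries at the same depth, and a small distance requires a like difference between WT and KO.

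The direction of each of the 8 genes was the same under the 14 alternatives tried. The log2 fold change ranged from -2.04 to -1.83 for *Trim71*, from -0.72 to -0.58 for *Hmga2*, from -0.64 to -0.51 for *Igf2bp1*, from -0.54 to -0.40 for *Hmga1*, from -0.42 to -0.28 for *Igf2bp3* and from -0.27 to -0.13 for *Igf2bp2*. These 6 genes passed the adjusted p in all 14, where the highest adjusted p was 0.0242, that of *Igf2bp2*. *Lin28a* ranged from 0.30 to 0.51 and *Lin28b* from -0.51 to -0.19, and neither passed in any.

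**Figure D5:**
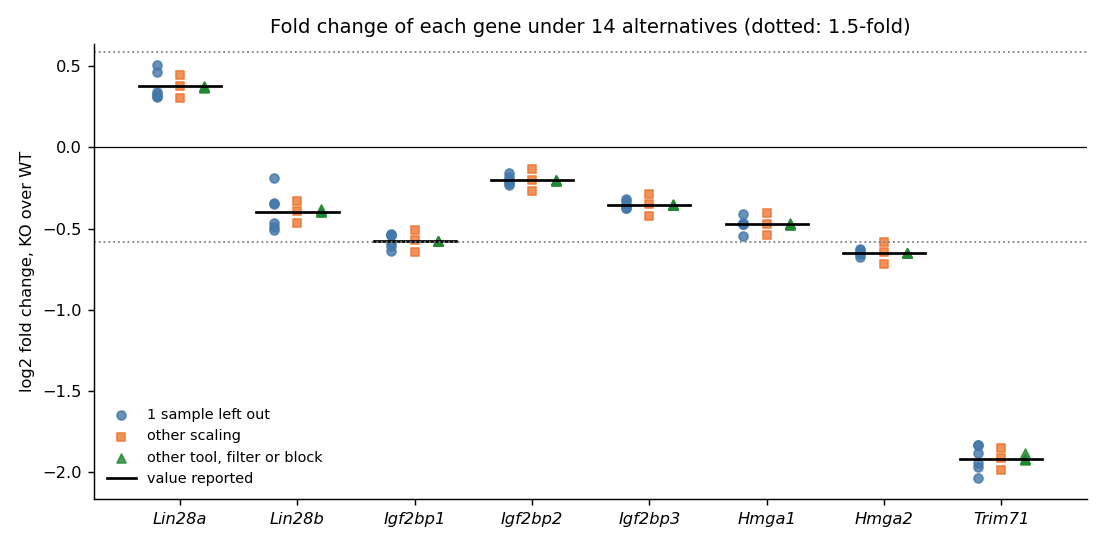
Log2 fold change (KO over WT) of each of the 8 genes as reported (black line) and under 14 alternatives (points), grouped as 1 sample left out, other scaling, and other tool, filter or block. Dotted lines mark 1.5-fold; no point crosses 0, and *Igf2bp1* lies on the line of 1.5-fold.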

How the data were processed

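RNA-seq counts of leg muscle from 3 WT and 3 KO samples were used. The authors trimmed reads with Trim Galore 0.6.6, mapped them to mm10 with HISAT2 2.2.1 and counted them per gene with featureCounts 2.0.1. Raw counts for each gene, not normalized, were deposited. Which annotation was counted, whether strand was used and whether pairs were counted once are not stated, so reads of overlapping genes and near-identical copies cannot be assigned with certainty. Gene IDs were matched to symbols of GENCODE M21 (54349 of 56262). Listed genes whose symbol had no matched ID could not be found by name and were left out of their lists.

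Counts were analysed in R 4.3.3 with edgeR 4.0.16 (filterByExpr, TMM, quasi-likelihood F-test on genotype alone), with Benjamini-Hochberg adjustment over 22071 genes. The test was also run on simulated counts with few changed genes, balanced in direction, so that run does not check the scaling used here. Calls needed an adjusted p under 0.05, and the fold threshold was 1.5. Levels per length used the union of annotated exons. The 3′ UTR is that of the transcript with the longest one, from the GENCODE transcripts. The genes, lists and tests were chosen with earlier results of these data known. All 8 genes were named; of the other lists, named genes were up to 3 in each direction with the largest change among genes past the adjusted p, at 1 CPM or more and without overlap of the groups, plus *Igf2* and *H19*. Genes named outside this rule were chosen after their values were seen. Like genes were the 3 nearest to each gene that passed at 1 CPM or more. Values of replicate libraries differed more than counting noise allows, with a mean chi-square per gene of 5.17 to 35.5 for pairs of a group. The alternatives were RLE and upper-quartile factors, library size alone, DESeq2 1.42.0, limma-voom 3.58.1, no filter, a minimum of 10 counts in all samples, a replicate block and leaving out each sample.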

Additional observations from a re-analysis of the deposited data

How the results depend on the processing

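Under every alternative run, 6 of the 8 genes passed the adjusted p as lower, none passed as higher and no direction turned. For the other named genes, the same alternatives were added after the values were seen, and 33 calls were lost, all in the same direction and all of *Igf2*, *Hmga1b*, *Drosha*, *Khsrp*, *Mir99ahg*, *Ccna2* and *Rbl2*. Scaling by library size alone ended the calls of *Mir99ahg* and *Rbl2* (adjusted p = 0.166 and 0.151), and upper-quartile factors those of *Drosha*, *Khsrp* and *Ccna2* (adjusted p = 0.466, 0.0584 and 0.195). Scaling moved the balance of all genes. Of all calls, 48.7% were higher in KO with TMM (4838 higher, 5098 lower), 36.6% with library size alone (3730 and 6475) and 62.0% with upper-quartile factors (6077 and 3719), and the median log2 fold change of all genes was -0.004, -0.07 and 0.06. *Hmga2* missed the 1.5-fold threshold with upper-quartile factors (-0.58). Leaving out 1 sample gave 3905 to 4799 genes higher and 3733 to 5046 lower. With a replicate block there were 4338 higher and 4522 lower genes. The deviations of samples with the same number correlated at -0.20, -0.13 and 0.05, so the numbers were not taken as a pairing, and the block changed no call of the 8 genes and, of the other named genes, ended only that of *Drosha*. With another length measure, that of the longest transcript, the share of *Igf2bp1* differed by -2.61 percentage points and that of *Hmga2* by -2.75. At 13 to 83 counts per sample, *Lin28a*, *Lin28b* and *Trim71* are the least precise of the 8 genes.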
